A study of Mus musculus with 8 samples.

Results

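The D cyclins, their kinases, a CDK-binding subunit and the CDK inhibitors were followed through the islet cells of the series as 10 genes chosen by name (Ccnd1, Ccnd2, Ccnd3, Cdk4, Cdk6, Cks1b, Cdkn1a, Cdkn1b, Cdkn1c and Cdkn2c) of the 24421 gene columns in the tables, and all 10 were present in all 8 samples. Islets came from 8-week-old mice, 4 samples from mice with 50% partial pancreatectomy (PPTx) 2 days earlier and 4 control samples from untreated, not sham-operated, mice. All mice were C57BL/6J with no other genotype, and a sample could pool islets of several mice, so p-values measure the spread between such samples. Each cell was captured in a droplet and its transcripts were counted as unique molecular identifiers (UMIs).

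D cyclins are made in response to growth signals and pair with Cdk4 or Cdk6 to phosphorylate RB, which frees E2F factors to switch on the genes of S phase. Inhibitors of the INK4 family (Cdkn2c among the genes here) bind Cdk4 and Cdk6 themselves, whereas those of the Cip/Kip family (Cdkn1a, Cdkn1b, Cdkn1c) bind cyclin and kinase together. Cks1b encodes a small subunit of CDK complexes that also serves the ubiquitin ligase containing Skp2, which marks the Cdkn1b protein for degradation. In the adult mouse islet Cdk4 and Ccnd2 are known to be needed for growth of the β-cell mass.

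Of 1240 cells deposited, 1232 passed limits on genes and UMIs per cell, 520 from control and 712 from PPTx islets. Samples held between 236645 and 1580152 UMIs, with medians of 3328 to 8677 UMIs per cell, and 1 barcode occurred in more than 1 sample. Cells were typed by their leading hormone, which gave 950 β-cells, 114 α-cells, 130 PP-cells, 13 δ-cells and 1 ε-cell, with 24 cells of mixed hormones left out. Markers other than the hormones used for typing followed the names of the β-, α- and PP-cells. The β-cell list included Iapp and the PP-cell list Pyy, which encode islet peptide hormones themselves. The summed level of 8 β-cell markers was 51756 CPM (UMIs of a gene per 1000000 UMIs) in β-cells, 1189 CPM in α-cells and 4846 CPM in PP-cells, that of 7 α-cell markers was 39694 CPM in α-cells, and that of 3 PP-cell markers was 113845 CPM in PP-cells and 20699 CPM in α-cells. In the 13 cells led by Sst, 4 δ-cell markers summed to 3151 CPM, more than in any other type but less than the β-cell markers (21814 CPM) and PP-cell markers (47313 CPM) there, so these cells are called δ-cells by their hormone only. The hormone makeup of the other islet cells moved with the operation. α-Cells were 60%, 47.8%, 83.9% and 61.9% of the α-, PP- and δ-cells in the control samples and 17.4%, 13.7%, 24.1% and 5.88% in the PPTx samples.

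β-Cells were called positive when they held at least 1 UMI of Top2a or Cdk1, genes of replicating cells, and 48 of the 950 did. Top2a alone was detected in 19 of them, Cdk1 alone in 13 and both in 16. Positive cells were 1.85%, 1.28%, 3.25% and 3.33% of β-cells in the control samples and 7%, 7.20%, 8.74% and 3.68% in the PPTx samples. The groups did not overlap, with means of 2.43% ± 1.02 (SD, n = 4) and 6.65% ± 2.13 (SD, n = 4) and an exact two-sided permutation p of 0.0286, the smallest that 4 samples against 4 allow. With at least 2 UMIs of Top2a and Cdk1 required, the difference was 1.23 percentage points in place of 4.22 and missed the threshold (exact permutation p = 0.286). Control replicates 1 and 2 held 1 positive cell each, so every difference between states was also computed without them.

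Ccnd2 (chr6:127125162-127152188, GRCm38.p6) was the D cyclin with the most UMIs in the islet cells. In β-cells it gave 78.0% of the 8092 D-cyclin UMIs, Ccnd1 gave 19.7% and Ccnd3 2.35%, shares of UMIs taken near transcript ends, which do not grow with transcript length. In positive β-cells Ccnd2 gave 77.7%, Ccnd1 17.9% and Ccnd3 4.46% of 448 D-cyclin UMIs, and in negative β-cells 78.0%, 19.8% and 2.22%. By sample the share of Ccnd1 ran from 5.88% to 27.7% in positive cells of the 6 samples other than control replicates 1 and 2, and from 13.4% to 27.1% in all β-cells. Pooled over samples it was 11.9% in α-cells (exact 95% interval 9.52 to 14.7) and 22.9% in PP-cells (19.2 to 26.9), and differences in these shares were not tested. The samples overlapped, with shares from 7.10% to 24.0% in α-cells and from 16.7% to 29.7% in PP-cells. These ranges leave out PPTx replicate 4, with 1 α-cell, and control replicate 1, with 2 PP-cells. Cdk4, the kinase partner, stood at 69.0 CPM in all β-cells pooled (95% Poisson interval 62.7 to 75.7), 61.7 CPM in α-cells (41.6 to 88.1) and 59.7 CPM in PP-cells (43.4 to 80.1). Cdk6, the alternative partner, was near absent from the counts, since all islet cells of these types together gave 1 UMI, in a β-cell. Cdkn1c was sparse, with 5 UMIs in β-cells, 3 in α-cells, 2 in PP-cells and 1 in δ-cells. Neither Cdk6 nor Cdkn1c passed the filter on low counts in any comparison, and neither was called without the filter. In δ-cells, no UMI of Cdk4, Cks1b or Cdkn2c was found among 41257 UMIs, which allows a level of up to 72.7 CPM, and Cdkn1b gave 10 UMIs, in cells that also held many β- and PP-cell markers, a pooled level of 242 CPM (116 to 446) against 40.4 CPM (35.6 to 45.6) in β-cells. The 13 δ-cells were too few for a test across samples. All intervals and limits of this kind cover counting error only.

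**Figure D1:**
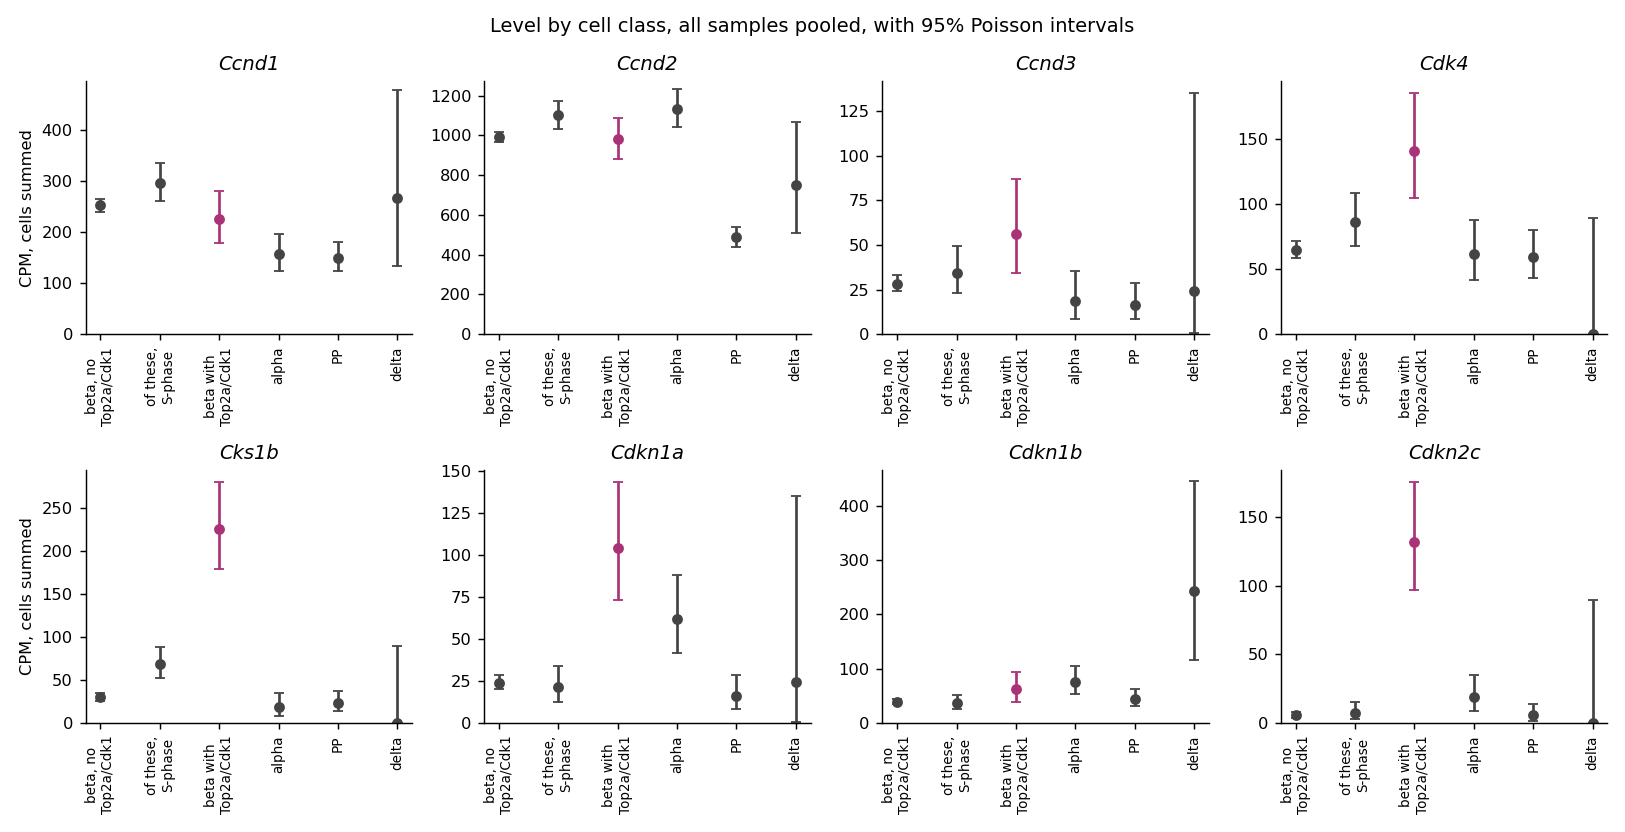
Pooled level of 8 genes (CPM, linear axes from 0) in β-cells without Top2a or Cdk1 UMIs, the S-phase cells among them, β-cells with such UMIs, α-, PP- and δ-cells, with 95% Poisson intervals that cover counting error only. Cks1b, Cdkn1a and Cdkn2c stand highest in the β-cells with Top2a or Cdk1 UMIs (225, 104 and 132 CPM), whereas Ccnd2 is lowest in PP-cells (487 CPM).

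To compare the endocrine types, UMIs were summed per sample and type and β-cells were set against the α- or PP-cells of the same samples with edgeR's quasi-likelihood test, a gene being called at an adjusted p (Benjamini-Hochberg over all genes tested) under 0.05. Against PP-cells both main D cyclins were higher in β-cells. In control replicates 2 to 4 and PPTx replicates 1 to 4, Ccnd2 stood at 633, 938, 1340, 653, 1008, 929 and 1554 CPM in β-cells. In the PP-cells of the same samples it stood at 472, 677, 613, 335, 501, 354 and 783 CPM. Ccnd2 was thus higher in the β-cells of all 7 samples, by 0.93 on the log2 scale (SE 0.14, edgeR adjusted p = 4.8e-10). Ccnd1 stood at 197, 262, 242, 257, 277, 253 and 245 CPM in these β-cells and at 142, 214, 193, 96.8, 144, 160 and 165 CPM in the PP-cells. It too was higher in β-cells in 7 of 7 samples, by 0.70 on the log2 scale (SE 0.18, edgeR adjusted p = 0.00155). Both calls held under all 17 alternatives tried.

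Of the 8 genes tested against PP-cells, Ccnd1 and Ccnd2 were called and both were higher in β-cells, beside 13.3% of all 9871 genes called (612 or 6.2% higher, 699 lower). The inhibitor Cdkn1a (0.85), Ccnd3 (0.87) and Cks1b (0.91 on the log2 scale) missed the threshold, with edgeR adjusted p-values of 0.211, 0.196 and 0.0954. With trimmed-mean (TMM) factors in place of total UMIs, which raised the median of all genes from -0.06 to 0.26 and turned the split of all calls to 1233 higher of 1607, these 3 were called as well, at 1.20, 1.19 and 1.19. Cdkn2c (1.20, adjusted p = 0.316), Cdk4 (0.28, adjusted p = 0.590) and Cdkn1b (-0.11, adjusted p = 0.890) were not called by edgeR with total UMIs.

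Between β- and α-cells Ccnd1 was higher and Cdkn1a lower in β-cells with total UMIs. In the 6 samples with at least 5 α-cells (control replicates 1 to 4, PPTx replicates 2 and 3), Ccnd1 stood at 133, 197, 262, 242, 277 and 253 CPM in β-cells and at 197, 251, 142, 137, 161 and 95.3 CPM in α-cells. It was higher in β-cells in 4 of the 6 samples and lower in control replicates 1 and 2, with a fitted difference of 0.66 (log2, SE 0.24, edgeR adjusted p = 0.0402) that lost its call without control replicate 3 (0.54), control replicate 4 (0.60) or PPTx replicate 3 (0.56), and also with DESeq2, thinning or a stricter limit on the second hormone. Cdkn1a, an inhibitor best known as a p53 target, stood at 35.7, 44.5, 17.3, 24.1, 30.9 and 23.9 CPM in these β-cells. In the α-cells it stood at 131, 55.7, 66.6, 73.5, 53.7 and 23.8 CPM, from few UMIs, as all 114 α-cells together held 30. It was lower in the β-cells of the first 5 of these samples and level in the last, by -1.35 on the log2 scale (SE 0.39, edgeR adjusted p = 0.00527), and lost its call without control replicate 3 (-1.03, adjusted p = 0.211), which held 52 of the 114 α-cells.

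These 2 were the genes called of 8 tested against α-cells, beside 16.6% of all 8986 genes (350 higher, 1140 lower in β-cells). The scaling weighed on this contrast, because the median of all genes was -0.42 with total UMIs and 0.28 with TMM factors, under which 1011 of 1333 calls were higher. With TMM factors Cdkn1a was at -0.60 and not called, nor was it with the hormone genes left out (-0.83, edgeR adjusted p = 0.0995) or at thinned depth (-1.28, adjusted p = 0.139), and Ccnd1 was at 1.38 and called. Ccnd2 changed its sign, from -0.22 (edgeR adjusted p = 0.391) with total UMIs to 0.58 (adjusted p = 0.0254) with TMM factors, so no direction between β- and α-cells is given for it. Relative to the median of all genes under total UMIs, Ccnd1 was at 1.08 and Cdkn1a at -0.92. Cdkn1b (-0.76, adjusted p = 0.115), Ccnd3 (0.55), Cks1b (0.50), Cdk4 (0.16) and Cdkn2c (-0.63) were not called by edgeR.

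Among other genes of the pathway, the prolactin receptor gene Prlr was called higher in β-cells against both types, by 4.97 against α-cells and 4.03 against PP-cells (log2), and so was Igf1r, the receptor of a growth factor, by 1.39 and 1.31. They belonged to a list of 12 upstream regulators of D cyclins and inhibitors in β-cells, of which 11 were tested, 2 higher and 1 lower (Gsk3b, -0.88) against α-cells and 3 higher against PP-cells, with Akt1 at 0.77. Of all genes, 16.6% were called against α-cells and 6.2% were called higher against PP-cells. The median of that list was -0.09 against α-cells, where all genes had -0.42. Of 8 tested p53 target genes, 2 were called lower in β-cells in both contrasts, Trp53inp1 (-1.21 and -1.27) and Btg2 (-0.86 and -1.31), where 12.7% and 7.08% of all genes were called lower. With TMM factors neither was called against α-cells (-0.49 and -0.09), and against PP-cells Btg2 was called (-0.93) and Trp53inp1 was not (-0.91, edgeR adjusted p = 0.0516). Gsk3b against α-cells (-0.18) was not called with TMM factors either. None of the later cyclins, of which 4 were tested against α-cells and 5 against PP-cells, and none of the E2F targets of S phase was called. In the RB and E2F family E2f1 was higher (2.82) and Tfdp2 lower (-1.497) against PP-cells, the latter not called with TMM factors (-1.16, edgeR adjusted p = 0.0584).

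Within β-cells, the cells with Top2a or Cdk1 UMIs carried more of 2 inhibitors, Cdkn2c and Cdkn1a, and more Cks1b and Cdk4, whereas the D cyclins Ccnd1 and Ccnd2 were not called at any change with total UMIs. The test was within samples, over 16 sums of 2062 to 1225031 UMIs from all 8 samples. Of 8133 genes tested, 4.3% were called, 325 (4.0%) higher and 25 lower in positive cells, and of the 8 genes tested here 4 were called, all higher. TMM factors moved the median of all genes from 0.15 to -0.48 and the split of all calls to 181 higher of 667.

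Cdkn2c, the INK4 inhibitor of Cdk4 and Cdk6, differed most. It stood at 970, 151, 240 and 119 CPM in the positive cells of control replicates 1 to 4 and at 118, 148, 74.1 and 54.3 CPM in those of PPTx replicates 1 to 4, from 2, 1, 11 and 3 UMIs and 8, 14, 7 and 1 UMIs. In negative cells it stood at 0, 2.15, 5.71 and 9.46 CPM in control and at 5.60, 5.14, 6.90 and 1.89 CPM in PPTx samples. Every positive sum lay above every negative sum. The fitted difference was 4.599 (log2, SE 0.42, edgeR adjusted p = 1.6e-24), a pooled ratio of 24.1 (95% interval 15.1 to 38.8), and it was called under all 21 alternatives at 3.82 to 5.16.

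Cks1b, the CDK-binding subunit, was at 970, 603, 283 and 119 CPM in the positive cells of the control samples and at 192, 211, 233 and 163 CPM in those of the PPTx samples. In negative cells it was at 0, 4.30, 18.0 and 11.8 CPM in control and at 42.0, 62.5, 31.1 and 30.3 CPM in PPTx samples. The sums of the 2 states again did not overlap, and the difference of 2.85 (log2, SE 0.33, edgeR adjusted p = 5.5e-12) was called under all 21 alternatives at 2.17 to 3.50. Cks1brt, a retrotransposed copy of Cks1b, held 45 UMIs against 289 of Cks1b and was called too, at 2.95 (SE 0.70, edgeR adjusted p = 0.00126), and counts could have been split between the pair.

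Cdkn1a was at 0, 452, 87.2 and 79.3 CPM in positive cells of the control samples, from 0, 3, 4 and 2 UMIs, and at 207, 94.96, 42.4 and 54.3 CPM in those of the PPTx samples, from 14, 9, 4 and 1 UMIs. In negative cells it was at 36.1, 38.7, 14.7 and 22.5 CPM in control and at 16.8, 25.7, 21.9 and 39.8 CPM in PPTx samples. It was higher in positive cells in 7 of 8 samples, all but control replicate 1, by 2.21 on the log2 scale (SE 0.37, edgeR adjusted p = 1.8e-07), and was called under 20 of 21 alternatives. The exception was thinning each cell to 2700 UMIs, which left 1.51 (adjusted p = 0.881).

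Cdk4 was at 0, 151, 153 and 79.3 CPM in positive cells of the control samples and at 192, 127, 117 and 217 CPM in those of the PPTx samples. In negative cells it kept between 47.4 and 82.2 CPM in all 8 samples. It too was higher in 7 of 8 samples, by 1.09 (log2, SE 0.29, edgeR adjusted p = 0.00624), but its call was lost without PPTx replicate 1 (0.92, adjusted p = 0.122) and with TMM factors (0.44), and was kept in 16 of 21 alternatives.

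The main D cyclins, Ccnd1 and Ccnd2, were not called with total UMIs. Ccnd2 was at 0, 904, 1242 and 1110 CPM in the positive cells of control and at 591, 1213, 837 and 1248 CPM in those of PPTx samples, and was higher than in negative cells in 3 of 8 samples, with a pooled level of 980 CPM (880 to 1089) against 992 CPM (967 to 1018). Its fitted difference was -0.00 (log2, SE 0.16, edgeR adjusted p = 0.995). Ccnd1 was higher in positive cells in 1 of 8 samples, at -0.31 (SE 0.23, adjusted p = 0.645). With TMM factors both were called lower, at -0.81 and -0.94, beside the median of all genes of -0.48. Ccnd3 was at 0.94 (SE 0.43, edgeR adjusted p = 0.289), with a pooled level of 56.3 CPM in positive and 28.3 CPM in negative cells (ratio 1.99, 95% counting interval 1.19 to 3.17) and a higher level in 4 of 8 samples. It was not called, and neither was Cdkn1b, the inhibitor known to hold quiescent cells in G1, at 0.71 (SE 0.40, edgeR adjusted p = 0.471). Higher levels in positive cells in all 8 samples were seen for Cdkn2c and Cks1b and for 0.578% of all genes tested, and in at least 7 samples for Cdkn1a and Cdk4 as well and for 2.43% of all genes.

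**Figure D2:**
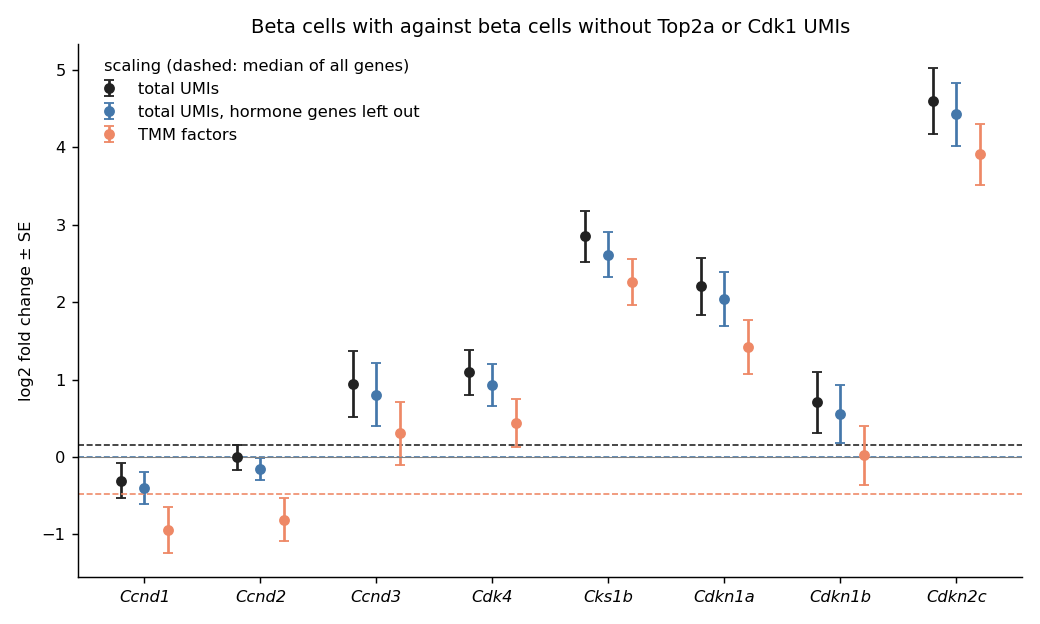
Fitted log2 fold change ± SE of 8 genes between β-cells with and without Top2a or Cdk1 UMIs within 8 samples, under 3 scalings, with the median of all genes under each as a dashed line. Cdkn2c (4.599), Cks1b (2.85) and Cdkn1a (2.21) lie above the medians under each scaling, whereas Ccnd1 and Ccnd2 lie below them.

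Counted by cells, and with every cell thinned to 2700 UMIs, Cdkn2c was detected in 20.9% of 43 positive cells (exact 95% interval 10.04 to 36.04) and in 1.47% of 814 negative cells (0.764 to 2.56). The share for Cks1b was 41.9% against 6.51%, for Cdkn1a 16.3% against 6.02%, and for Cdk4 39.5% against 15.8%. Ccnd2 was detected in 88.4% against 86.9%, and Ccnd1 in 46.5% against 45.8%. Without thinning, the shares in positive and negative cells were 41.7% and 3.55% for Cdkn2c, 64.6% and 16.0% for Cks1b, 45.8% and 11.8% for Cdkn1a and 58.3% and 32.4% for Cdk4, at medians of 6997.5 and 6009.5 UMIs per cell. Of the 48 positive cells, Cks1b was detected in 31, Cdk4 in 28, Cdkn1a in 22 and Cdkn2c in 20 without thinning. Cks1b and Cdk4 were both detected in 23 cells, Cks1b and Cdkn2c in 15, Cks1b and Cdkn1a in 13, and Cdkn1a and Cdkn2c in 10, and whether any pair met more or less often than its single counts give was not tested.

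The positive cells, pooled over samples, were also split by which marker they held, and differences between these sets were not tested. Cdkn2c was at 230 CPM in the cells with both Top2a and Cdk1 (160 to 320). In those with Top2a or Cdk1 alone it was at 67.2 (30.7 to 128) and 43.6 CPM (8.99 to 127). Cks1b was at 315 (232 to 418), 179 (115 to 267) and 116 CPM (50.2 to 229) in the same order. Cdkn1a was at 98.5, 120 and 87.2 CPM and Cdk4 at 131, 157 and 131 CPM. Median depth differed between these cells, with 8960, 6416 and 4380 UMIs, and its part in these levels was not tested. Other cell types' transcripts also differed between the states when cells were pooled over samples. Gcg, the α-cell hormone, was at 4605 CPM in positive and 306 CPM in negative cells, the summed level of 4 stellate cell markers was at 73.2 and 24.96 CPM and that of 5 immune markers at 39.4 and 21.8 CPM, with no UMI of 5 endothelial markers in positive cells. The summed level of 7 α-cell markers was at 2673 CPM in positive and 1741 CPM in negative cells. In the other direction, the PP-cell hormone Ppy was at 682 CPM in positive and 1538 CPM in negative cells, the δ-cell hormone Sst at 59.1 and 499 CPM, the summed level of 3 PP-cell markers at 501 and 866 CPM and that of 4 δ-cell markers at 403 and 494 CPM. Acinar markers were at 22.5 and 18.6 CPM and ductal markers at 33.8 and 34.9 CPM. These pooled levels were not compared by sample, and single samples weighed on some of them. Of 176 UMIs of stellate cell markers in all β-cells, 147 came from PPTx replicate 2. Of 145 UMIs of immune markers, 74 came from PPTx replicate 1. The part of these transcripts in the differences was not tested.

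Most of the later cyclins and E2F targets tested were also higher in positive cells, where 4.3% of all genes were called and 4.0% were called higher. Of 8 later cyclins and partners tested, 7 were called, all higher, led by Ccna2 (5.87), Ccnb2 (5.80), Cks2 (5.32) and Fbxo5 (4.42 on the log2 scale), with a list median of 4.29 against 0.15 for all genes. Of 14 E2F targets of S phase, 12 were called higher, such as Mcm3 (4.41), Rrm2 (3.90) and Rrm1 (3.65), with a median of 3.19. E2f1 (2.26) and Rbl1 (2.03, not called with TMM factors at 1.55) were called among 11 genes of the RB and E2F family, and the INK4 inhibitor gene Cdkn2d (2.38) among 4 other inhibitors and CDK-activating kinase genes. Of 10 upstream regulators 2 were called, Foxm1 (4.70), a transcription factor of mitotic genes, and Ezh2 (3.84), a histone methyltransferase. None of 7 tested p53 target genes was called by edgeR with total UMIs, with 0 at an unadjusted p under 0.05 and a median of 0.04, beside the 4.3% called among all genes.

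Promoters of the genes were read for the letters of E2F sites and of the cell cycle homology element. Cks1b and Cdkn2c were each called higher in positive cells, as were Cdkn1a and Cdk4, and whether they share a regulator was not tested. Of 250 bases before the annotated start (RefSeq, GRCm38.p6), 10 entries covered 7 of the genes, and 2 of these entries held a match on either strand. The Cks1b promoter at chr3:89418292-89418541 (minus strand) holds TTTGAA at 17 bases before the start and its reverse complement at 77 bases, and the Cdkn2c promoter at chr4:109666757-109667006 (minus strand) holds TTCCCGC at 25 bases. They are shown 5′ to 3′ on the strand of the gene, with matches in capitals.
Cks1b: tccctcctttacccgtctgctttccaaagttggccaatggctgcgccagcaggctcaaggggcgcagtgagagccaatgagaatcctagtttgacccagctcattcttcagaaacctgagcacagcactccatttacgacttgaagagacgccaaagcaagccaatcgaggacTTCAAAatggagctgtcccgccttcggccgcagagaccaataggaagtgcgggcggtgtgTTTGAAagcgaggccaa
Cdkn2c: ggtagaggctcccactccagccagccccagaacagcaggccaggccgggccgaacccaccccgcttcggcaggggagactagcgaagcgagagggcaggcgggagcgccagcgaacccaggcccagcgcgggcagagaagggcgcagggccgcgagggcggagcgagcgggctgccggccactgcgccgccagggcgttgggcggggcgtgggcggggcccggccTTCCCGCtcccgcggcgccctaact
Of 32851 promoters of the same length in the table, TTTGAA is in 16.0% and its variant TTCGAA in 1.34%, and of the E2F letters TTCCCGC is in 3.82%, while TTCGCGC is in 1.28%, the form TTGCCGC is in 1.36% and the form TTGGCGC in 1.97%. These 6 were the letters searched, none overlapping in the matches shown, and a match describes the letters only. A further Cdkn2c entry, from another start, and the entries of Cdk4, Cdk6, Cdkn1a, Cdkn1b and Ccnd3 held none of these letters in the window. Among the genes called in a comparison, Ccnd1 lies at chr7:144929931-144939831, Cdk4 at chr10:127063535-127067288, Cdkn1a at chr17:29090979-29100722, Cks1b at chr3:89415472-89418291 and Cdkn2c at chr4:109660876-109666756.

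Cells that lack Top2a and Cdk1 but held at least 2 UMIs of E2F targets of S phase numbered 106, and among the genes followed here Cks1b alone was called in them. Its level in these cells was 0, 0, 36.7 and 20.8 CPM in control and 71.3, 122, 45.7 and 73.1 CPM in PPTx samples. Against the other negative β-cells it was higher by 1.16 (log2, SE 0.29, edgeR adjusted p = 0.0191), where 0.36% of 8897 genes were called and 0.315% were called higher. The call was lost without PPTx replicate 1, 2 or 4 and with TMM factors (1.02, adjusted p = 0.108). Cdkn2c was at 0.34 and Cdkn1a at -0.09, with edgeR adjusted p-values of 0.997 and 0.999, and the pooled level of Cdkn2c was 7.11 CPM in these S-phase cells, 5.49 CPM in all negative cells and 132 CPM in positive cells. Ccnd1 and Ccnd2 were both at 0.23, Ccnd3 at 0.30, Cdk4 at 0.45 and Cdkn1b at -0.05, none called.

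After PPTx, Cks1b was the gene among these whose level rose in β-cells. It stood at 10.2, 12.7, 27.5 and 14.9 CPM in control replicates 1 to 4 and at 55.0, 73.7, 50.9 and 34.8 CPM in PPTx replicates 1 to 4. All 4 PPTx samples lay above all 4 controls, with means of 53.6 ± 16.0 CPM (SD, n = 4) and 16.3 ± 7.71 CPM (SD, n = 4), where 4.08% of all genes tested were higher without overlap. The fitted difference was 1.41 (log2, SE 0.27, edgeR adjusted p = 0.00948). Of 9658 genes tested, 0.197% were called (14 or 0.145% higher, 5 lower), and Cks1b was the 1 called of the 8 tested here. Its direction was kept when each sample was left out in turn (1.27 to 1.94), but the call was lost without control replicate 2, control replicate 4, PPTx replicate 1 or PPTx replicate 2 (edgeR adjusted p of 0.0911, 0.0815, 0.0698 and 0.0556), and at thinned depth (1.69, adjusted p = 0.122). In each of the other 7 tested genes the groups overlapped. Markers of other islet types were also higher in the β-cells of the PPTx samples without overlap, the summed level of 3 PP-cell markers running from 86.6 to 744 CPM in control and from 895 to 2394 CPM in PPTx samples and that of 7 α-cell markers from 1309 to 1748 CPM and from 1827 to 2266 CPM. The summed levels of δ-cell, acinar, ductal, endothelial, immune and stellate markers overlapped between the groups. Their part in the Cks1b difference was not tested.

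**Figure D3:**
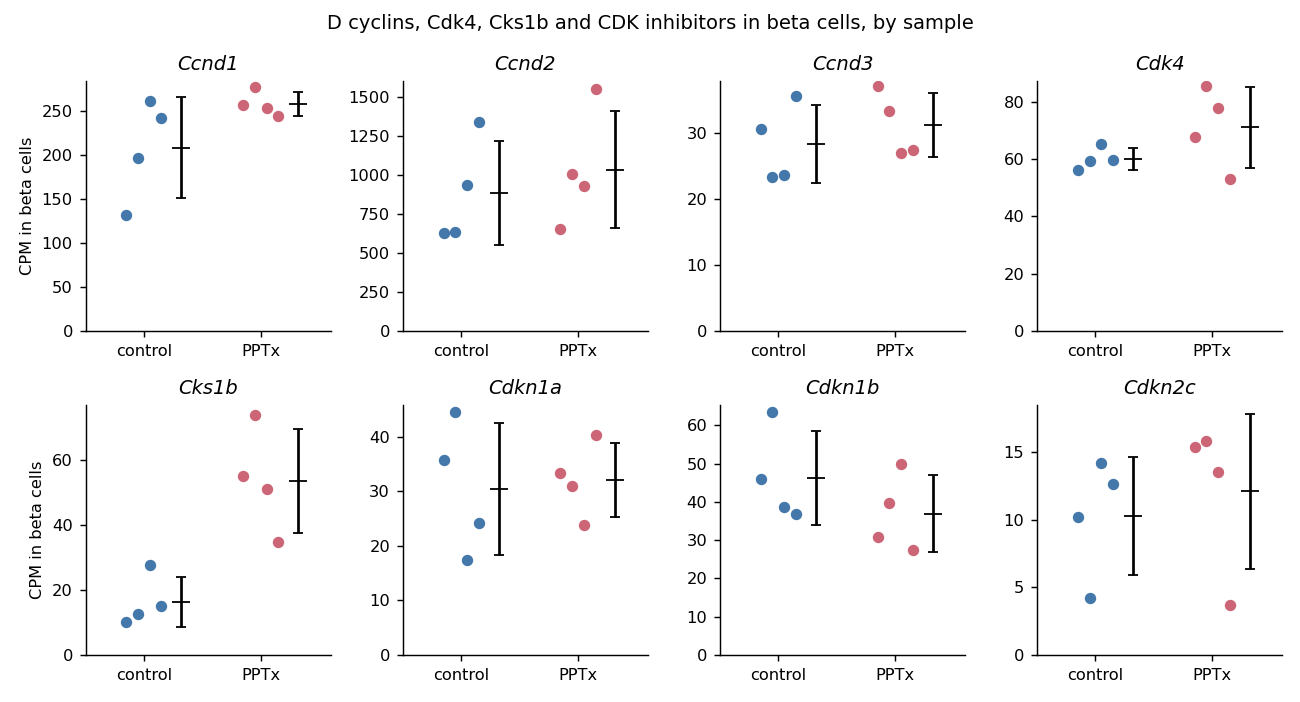
Level in β-cells (CPM, linear axes from 0) of 8 genes in each of 4 control and 4 PPTx samples (points), with mean ± SD beside them. The Cks1b points of the groups do not overlap (10.2 to 27.5 against 34.8 to 73.7 CPM), and those of the other 7 genes do.

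The D cyclins kept overlapping ranges after PPTx. Ccnd1 stood at 133, 197, 262 and 242 CPM in control and at 257, 277, 253 and 245 CPM in PPTx β-cells, a difference of 0.17 (log2, SE 0.18, edgeR adjusted p = 0.860). Ccnd2 ranged widely within both groups, from 632 to 1340 CPM in control and from 653 to 1554 CPM in PPTx samples (0.15, SE 0.40, edgeR adjusted p = 0.954), and Ccnd3 was at 0.05 (SE 0.26). Cdk4 was at 56.1, 59.3, 65.3 and 59.7 CPM in control and at 67.8, 85.6, 77.9 and 53.1 CPM in PPTx β-cells, with 3 of 4 PPTx samples above all controls and PPTx replicate 4 below them (0.13, SE 0.20, edgeR adjusted p = 0.920). A p that misses the threshold is not a measurement of no change.

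The inhibitors were not called either. Cdkn1b stood at 45.9, 63.5, 38.6 and 36.8 CPM in control and at 30.7, 39.6, 49.8 and 27.5 CPM in PPTx β-cells (-0.35, SE 0.24, edgeR adjusted p = 0.731). Cdkn1a stood at 35.7, 44.5, 17.3 and 24.1 CPM and at 33.2, 30.9, 23.9 and 40.3 CPM (0.10, SE 0.29). Cdkn2c, which was high in positive cells, stood at 10.2, 4.24, 14.2 and 12.6 CPM in control and at 15.3, 15.8, 13.5 and 3.66 CPM in PPTx β-cells (0.04, SE 0.39). The level of Cdkn2c over all β-cells thus overlapped between the groups.

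The rise of Cks1b was also present in β-cells without Top2a or Cdk1 UMIs, where the levels given above for negative cells ran from 0 to 18.0 CPM in control and from 30.3 to 62.5 CPM in PPTx samples, without overlap, as for 3.6% of genes tested. The difference there was 1.73 (log2, SE 0.34, edgeR adjusted p = 0.0158), with 0.168% of 9526 genes called and 0.147% called higher, and its call was lost without control replicate 1, 2 or 4 or PPTx replicate 1 or 2 (edgeR adjusted p of 0.0522 to 0.120, and 1.49 to 2.37 over all samples left out). In the 612 β-cells with no UMI of 10 replication markers or of the S-phase genes it stood at 0, 2.96, 16.0 and 12.7 CPM in control and at 30.9, 40.0, 24.2 and 26.7 CPM in PPTx samples. These groups did not overlap either, as for 3.04% of genes tested, but the difference of 1.37 (SE 0.40, edgeR adjusted p = 0.248) was not called, where 0.138% of 8671 genes were. Cells chosen for lacking UMIs can still hold transcripts that were not captured, and how many of them were cycling was not tested. Cks1brt, with 45 UMIs in all, was at 0.33 with PPTx over all β-cells and was not called (log2, edgeR adjusted p = 0.936).

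**Figure D4:**
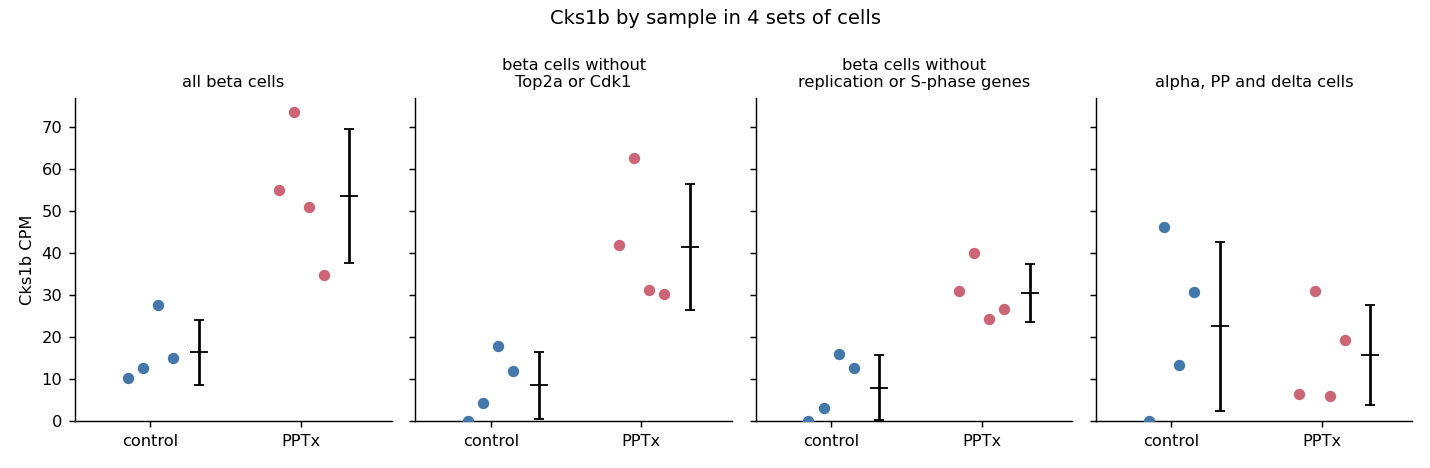
Cks1b level (CPM, linear axis from 0) in each control and PPTx sample (points, with mean ± SD beside them) in all β-cells, in β-cells without Top2a or Cdk1 UMIs, in β-cells without UMIs of replication or S-phase genes, and in α-, PP- and δ-cells. The groups do not overlap in the first 3 sets (in the third, which was not called, 0 to 16.0 against 24.2 to 40.0 CPM, where 3.04% of genes were higher without overlap) and overlap in the fourth.

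Around Cks1b, the E2F targets of S phase gave 1 call of 12 tested after PPTx, Mcm6, a subunit of the replicative helicase (2.21, SE 0.36, edgeR adjusted p = 0.00181), with a list median of 1.64 against 0.01 for all genes. Of all 9658 genes tested there, 0.197% were called and 0.145% were called higher. In the negative cells Mcm5 (3.45) and Mcm6 (2.12) were called of 10 tested, where 0.168% of 9526 genes were called and 0.147% were called higher. No gene of the other lists was called in β-cells, and the 8 tested p53 targets had a median of -0.23.

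Whether the step between negative and positive cells differed between the groups was tested as an interaction, for which 0.0246% of 8133 genes were called and none of the 8 tested here. Cks1b came nearest, at -2.20 (log2, SE 0.59, unadjusted p from edgeR 0.000198, adjusted p = 0.403), the step being smaller after PPTx, and its lowest adjusted p over the alternatives was 0.166. Cdkn2c was at -0.85 (SE 0.86), Cdkn1a at -0.44 (SE 0.73) and Cdkn1b at -1.61 (SE 0.78). Ccnd1 was at 0.98 (SE 0.56), Ccnd2 at -0.16 (SE 0.32), Ccnd3 at 0.08 (SE 0.97) and Cdk4 at 0.10 (SE 0.64). The control side of this comparison rested on 10 positive cells.

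In α-, PP- and δ-cells summed together no gene followed here was called after PPTx by edgeR, of 7 tested, with 2 at an unadjusted p under 0.05 and 0.114% of 6163 genes called, all lower. Cdkn1a stood at 74.5, 46.2, 56.3 and 40.8 CPM in control and at 6.49, 23.2, 12.0 and 38.5 CPM in PPTx samples. These groups did not overlap, as for 2.9% of genes tested in this direction, with a difference of -1.38 (log2, SE 0.54, edgeR adjusted p = 0.596). Ccnd2 stood at 782, 609, 957 and 1213 CPM in control and at 416, 572, 456 and 770 CPM in PPTx samples (-0.59, SE 0.27, edgeR adjusted p = 0.753). Both genes had more UMIs in α- than in PP-cells (61.7 against 16.3 CPM for Cdkn1a, 1136 against 487 CPM for Ccnd2). The share of α-cells fell in the PPTx samples, so the operation and the cell mix cannot be told apart in these sums. Within PP-cells the means were 588 CPM in control (n = 3) and 493 CPM in PPTx samples (n = 4) for Ccnd2. For Cdkn1a they were 25.5 and 16.7 CPM. Both ranges overlapped, and no gene was called in PP-cells alone. Within α-cells (n = 4 and 2) the means were 1215 and 842 CPM for Ccnd2 and 81.8 and 38.8 CPM for Cdkn1a, not tested. Cks1b stood at 0, 46.2, 13.2 and 30.6 CPM in control and at 6.49, 30.9, 5.997 and 19.2 CPM in PPTx samples, with overlapping groups (-0.40, SE 0.63, edgeR adjusted p = 0.973). Cdkn1b was at -0.77 (SE 0.42), Ccnd3 at -0.35 (SE 0.67), Ccnd1 at -0.07 (SE 0.31) and Cdk4 at 0.18 (SE 0.42).

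Over the 21 sums per sample and hormone type with at least 5 cells, and among the 1219 genes detected in all of them, the genes whose levels ran most alike were Edem2, Clptm1l and Hspa5 for Ccnd1 (Spearman rho 0.68, 0.67 and 0.67), Ppp1ca, Nipal1 and Scg3 for Ccnd2 (0.80, 0.80 and 0.77), and Sf1, Eci2 and Srsf6 for Cdk4 (0.74, 0.62 and 0.58). The sums of a sample share its library and depth, and these values are a description. The other genes followed here were not detected in every sum.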

How the data were processed

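Islet cells of 4 control and 4 PPTx samples were analysed. Per the study's methods and the labels, the authors aligned the reads to mm10 with Cell Ranger and deposited UMI counts per gene symbol and cell, whole numbers without normalization, 1 table per sample. The labels name a Chromium kit and the study's methods a SureCell kit. The rule by which cells entered the tables is not given in the sources used here. The genes and lists were chosen with earlier results of these data known.

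Kept cells held 100 to 3000 genes and 100 to 20000 UMIs. A cell took the type of its leading hormone (Ins1 plus Ins2, Gcg, Ppy, Sst or Ghrl) if that held at least 1% of its UMIs and the next hormone had under 0.5 of the leading one's UMIs. No doublet caller was run. Cells of mixed hormones were left out. CPM were computed from summed UMIs.

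Sums per sample were tested with edgeR 4.0.16 (quasi-likelihood, robust, R 4.3.3) after filterByExpr (minimum count 2, minimum total 15), with the Benjamini-Hochberg adjustment over all genes tested and a threshold of 0.05. All tests are two-sided. PPTx against control used TMM factors. Comparisons within samples (types, states and interactions) had the sample as a block and were scaled to total UMIs. This replaced the TMM factors first planned, because TMM factors shifted unchanged genes in simulated sums of unequal depth. The simulated sums shared the same expression profile apart from genes changed on purpose. They therefore cannot decide which scaling suits sums that differ in their makeup, as those of types or states can. TMM is given as an alternative, as are DESeq2 1.42.0, other filters, thresholds and cell rules, thinning to 2700 UMIs and leaving out each sample. The tests were tested on simulated data. Shares of cells have exact binomial and pooled CPM exact Poisson intervals (95%), and a count of 0 was given the limit of 3 counts. The genes tested are named in each main comparison, and from each list of pathway genes up to 4 called genes with the largest change, except an item that is not reported here. Positions and promoters are from RefSeq, GRCm38.p6, with symbols matched for all 10 genes.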

Additional observations from a re-analysis of the deposited data

Results flagged for a closer look

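The change of Ccnd2 with PPTx differed between β-cells and the other hormone cells by an interaction test, with a log2 difference of 0.87 (SE 0.19, edgeR adjusted p = 0.0220), where 0.233% of 9865 genes were called and the median of all genes was 0.27. The level was 632, 633, 938 and 1340 CPM in control β-cells beside 782, 609, 957 and 1213 CPM in the other cells of these samples, and 653, 1008, 929 and 1554 CPM in PPTx β-cells beside 416, 572, 456 and 770 CPM. The call was lost with TMM factors (0.64, adjusted p = 0.621), with the hormone genes left out (0.47, adjusted p = 0.4927) and in 6 of 8 fits that left out a sample (control replicates 3 and 4 and each PPTx replicate). The share of α-cells among the other cells, given in the report, moved with PPTx, and its part in the difference cannot be told apart. In 32 groups of 4 samples looked at for these genes, no sample stood apart from the others by Dixon's test, which chance alone would flag in about 1 group of 20.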

How the results depend on the processing

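Of the values of single genes under the alternatives, 1124 kept their side of the threshold (1020 with the same sign, 104 with the other sign while not called), 40 lost and 13 gained a call, and 3 changed sign and were called. Those 3 are Ccnd2 between β- and α-cells, at 0.65 with DESeq2's size factors, 0.58 with TMM factors and 0.34 without hormone genes. The number of genes called moved more. For PPTx in β-cells (19) it was 47 with library size alone, 68 with no filter, 8 thinned, 12 without replication or S-phase cells, 12 without control replicate 1 and PPTx replicate 4, and 4 to 23 with 1 sample left out. In the other hormone cells (7) it was 13 with library size alone, 11 with no filter, 14 without hormone genes, 17 with the next hormone held to a stricter limit, 16 by the leading hormone alone, 0 in PP-cells only, and 0 to 16 with 1 sample left out. For the interaction of PPTx and state (2) it was 0 with DESeq2, its size factors, TMM factors, thinning or 10 markers, 1 with at least 2 UMIs or without control replicates 1 and 2, and 0 to 2 with 1 sample left out. For the state (350) it was 231 with DESeq2, 864 with its size factors, 667 with TMM and 47 thinned, for β- against PP-cells (1311) 507 thinned, and for β- against α-cells (1490) 986 with DESeq2, 640 thinned and 775 to 1479 with 1 sample left out. The difference in the share of positive cells (4.22 percentage points) was 1.23 with at least 2 UMIs (exact permutation p = 0.286) and 3.53 to 5.22 with 1 sample left out (p = 0.0571, the smallest possible). DESeq2 gave Cks1b after PPTx a log2 difference of 1.43 without an adjusted p. TMM factors within samples, library size alone, the S-phase and quiet cells, PP-cells only and the leaving out of paired samples were chosen after seeing the data. The cause of these moves was not tested, except that thinning and leaving samples out leave fewer UMIs.

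Same-numbered samples correlated at 0.050, 0.036, 0.093 and 0.146 in their deviations, not all over 0.1, so the numbers were not taken to pair the samples. Each PPTx sample correlated best with the control of its number, and so did each control with its PPTx sample, except control replicate 2, which correlated best with PPTx replicate 3 (0.062), a hint from the data and not from the design. With the replicate block, 27 genes were called in β-cells and 2 in the other hormone cells, Cks1b stayed called at 1.40, and the share differed by 4.22 (exact p = 0.125, the smallest that 4 pairs allow). β- against δ-cells was not run, having too few samples with 5 δ-cells. Depth limits what can be seen of Cdk6, Cdkn1c and the δ-cells.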
